A study of Homo sapiens with 6 samples.

Results

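Gene expression was compared between HEK293 cells that had spent 60 min in 50 mM sodium salicylate and cells that had spent 30 min in it. The comparison holds 4 of the 6 arrays of the study, 2 at each time. The other 2 arrays came from untreated control cells (0 min) and enter here as the starting level and in the estimate of the spread. HEK293, an established cell line of embryonic kidney origin, was used throughout, and no genetic change is named in any group. Both times carry the same agent at the same dose, so the comparison asks what changes between 30 and 60 min of exposure. Of the 47323 probes on the Illumina bead array, all 22377 with a detection p-value below 0.05 on at least 2 of the 6 arrays were tested. The named ones represent 12547 genes, each taken at its brightest detected probe.

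Salicylate is the compound that aspirin gives rise to in the body. It inhibits NF-kappaB signalling at high doses, and it also activates the AMP-activated protein kinase and uncouples mitochondria. Stresses often act early on transcripts with a short life, such as those of the immediate early genes, which cells switch on within minutes and degrade as fast, and on the RNAs of the ribosome, which take up much of the cell's transcription. Some of the small RNAs that appear below belong to that second machinery. U3 guides the first cuts of the ribosomal RNA precursor and RNase MRP cuts it further. 5S RNA is made apart from that precursor by RNA polymerase III. Others, such as the vault RNAs and the spliceosomal RNAs, are not RNAs of ribosome production.

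The labels name no mock treatment and no other salt, so time in culture, handling and the added sodium cannot be told apart from salicylate. Separate cultures are not stated for the 2 samples in each group, and p-values therefore measure only how far these samples spread, which could be technical. Each array detected between 20726 and 21740 probes. Of 7 HEK293 markers with a probe (neurofilaments, vimentin, keratins and kidney transcription factors), 6 were detected on all 6 arrays, and the kidney factor PAX2 was detected on 0. Of 16 markers of leukocytes, endothelium, hepatocytes, fibroblasts, red cells and keratinocytes, 11 were detected on no array. The exceptions were CD14, ALB and COL1A1 on all 6 arrays, DCN on 3 and APOA1 on 2, and the mean of CD14 was 8.35 in controls, 8.69 at 30 min and 8.04 at 60 min. The part of these markers in any result was not tested. Correlations of arrays across probes lay between 0.9949 and 0.9960 within a group and between 0.9908 and 0.9922 for a 60 min array with a 30 min array. On the first principal component, with 43.2% of the variance, both 60 min arrays lay at 25.1 and 24.5 and the other 4 arrays between -13.8 and -10.9.

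Between 30 and 60 min 3465 probes (15.5%) and 2449 genes (19.5%) changed, as called by an adjusted p-value under 0.05 in limma. Of these, 1184 rose (9.44%) and 1265 fell (10.1%). Counts in the gene lists below are to be read against these shares of all genes. Most changes were small. The median size among called genes was 0.37 on the log2 scale, or 1.29-fold, 383 reached 1.5-fold, and only 32 reached 2-fold (23 higher and 9 lower). Over all genes the median change was -0.0087. Both 60 min arrays lay beyond both 30 min arrays for every called gene, but the same held for 29.1% of all genes upward and 31.2% downward. For comparison, 40 genes (0.319%) passed the threshold for 30 min against control and 2477 (19.7%) for 60 min against control. The first of these uses the same 30 min arrays as the present comparison.

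**Figure D1:**
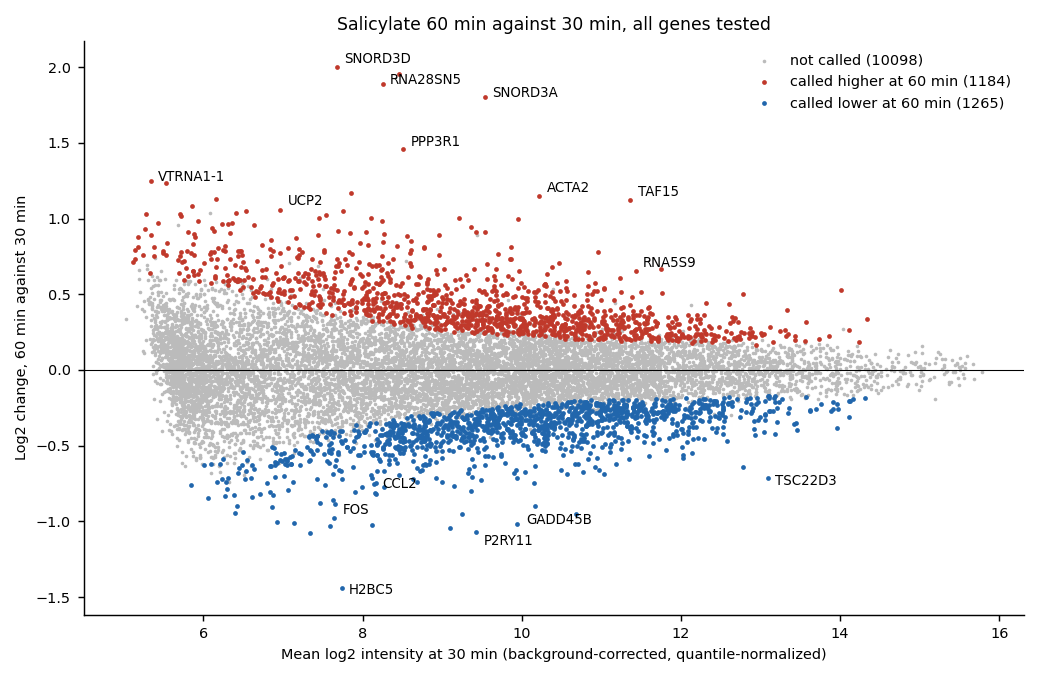
Each point is 1 of the 12547 genes tested; the x axis is its mean normalized log2 intensity at 30 min and the y axis its log2 change from 30 to 60 min. The 1184 genes called higher are red and the 1265 called lower are blue; U3 and 28S RNA stand at the top near 2, and the histone gene H2BC5 at the bottom at -1.44.

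The counts depended on 3 choices. With arrays scaled to a common median in place of quantile normalization, 385 genes were higher and 1048 lower, and the median over all genes moved to -0.065. Directions below are therefore given relative to the quantile scale, and no called change named here turned its sign under either scaling. Without the dependence of the variance on intensity, 490 genes passed. Of 182 called named genes followed, 109 lost their call in that setting, and only some of these losses are given below. Without 30 min replicate 1 the count was 1054 and without 30 min replicate 2 it was 954, while the other omissions of 1 array left between 1855 and 2195. Of the 30 genes named below for the size of their change, 24 were called under every setting in which they were tested, and the change of 15 was over 1.5 times smaller without background correction.

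The largest rises were in RNAs of ribosome production. SNORD3D, one of the genes for U3, read 7.74 and 7.60 at 30 min and 9.62 and 9.73 at 60 min (normalized log2 intensity), after 5.97 and 6.01 in controls. It rose by 2.00 ± 0.11 (log2, SE of the fit, n = 2 arrays per time), which is 4.01-fold (adjusted p = 2.05e-06). SNORD3C went from 8.35 and 8.57 to 10.38 and 10.46, and SNORD3A from 9.59 and 9.48 to 11.28 and 11.40. The groups did not overlap at any of the 3 genes, and each stood higher at 30 min than in controls and higher again at 60 min. Their changes from control to 30 min were 1.68, 1.47 and 1.23, and those from 30 to 60 min 2.00, 1.96 and 1.80, and none of the 3 differences between these steps passed its test (adjusted p of the difference 0.0808 for SNORD3A, 0.174 for SNORD3C and 0.418 for SNORD3D). The U3 genes are near-identical copies, so a probe named for one may have measured others.

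RNA28SN5, a copy of the gene for 28S ribosomal RNA, behaved otherwise. It read 8.29 and 8.42 in controls, 7.99 and 8.52 at 30 min, and 10.46 and 9.83 at 60 min. Both 60 min arrays were above all 4 others, by 1.89 ± 0.19 against 30 min, or 3.70-fold (adjusted p = 0.000184), while the change before 30 min was -0.10. Its other detected probe rose by 1.27. RNA18SN5, for 18S RNA, read 7.05 and 7.43 at 30 min and 7.90 and 8.13 at 60 min. It rose by 0.78 ± 0.17 (adjusted p = 0.0111), a call that ended without 30 min replicate 1 (adjusted p = 0.0956) and without the intensity trend (0.0924), and its size was 0.50 without background correction.

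RNAs made by RNA polymerase III rose as well, and some had begun to do so earlier. Of 13 tested members of the list of polymerase III transcripts and RNase RNAs 6 rose and 0 fell, with a median of 0.32. The share higher was 46.2%, against 9.44% of all genes. RNA5S9, a gene for 5S RNA, read 8.25 and 8.15 in controls, 11.44 and 11.43 at 30 min and 12.13 and 12.04 at 60 min. Most of its gain came before 30 min (3.23), and it rose by a further 0.65 ± 0.07 (adjusted p = 0.000238). RN7SK, an RNA that keeps P-TEFb, an elongation factor, in an inactive complex, read 9.40 and 9.44 at 30 min and 10.33 and 10.34 at 60 min. It rose by 0.91 ± 0.07 (adjusted p = 5.22e-05) after 0.60 in the first 30 min.

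The 2 tested genes named for vault RNAs, the short RNAs of the large vault particle, rose between 30 and 60 min. The name alone does not place VTRNA2-1 in that particle. VTRNA1-1 was not above background in controls or at 30 min, at 5.34 on both 30 min arrays, and read 6.58 and 6.59 at 60 min. It was at least 1.86-fold higher at 60 min than at 30 min (adjusted p = 0.00183), where a bound of this kind sets the bright mean against the lowest signal that counted as detected. VTRNA2-1 rose by 0.94 ± 0.20 from 6.07 and 6.14 to 6.93 and 7.16, a call lost without 30 min replicate 1 (adjusted p = 0.0593) and without the intensity trend (0.058). RMRP, the RNA of RNase MRP, rose by 0.80 ± 0.16 from 6.96 and 6.72 to 7.62 and 7.67, a call lost without 30 min replicate 2 (adjusted p = 0.0712). BCYRN1, a brain cytoplasmic RNA, rose by 0.32. RPPH1, the RNA of RNase P, had a change of 0.38 that did not pass (adjusted p = 0.0591). The Y RNAs RNY1, RNY3 and RNY5 and the signal recognition particle RNA RN7SL1 had changes between -0.08 and 0.06 and were not called.

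A group of 3 genes for U1, the small nuclear RNA that recognises the start of introns, moved alike. RNVU1-18, RNU1-1 and RNU1-3 each rose by 0.44, and 3 of 6 tested spliceosomal RNAs were called in all (50%, against 9.44% higher among all genes). They share sequence, so these may not be separate measurements, and all 3 calls ended with median scaling (adjusted p = 0.106, 0.156 and 0.119) and without the intensity trend (0.056, 0.0716 and 0.0632). Only 1 of the 6 was called without 30 min replicate 1. Labelling started from an oligo(dT) primer, and as background most of these structural RNAs carry no long poly(A) tail. A change in their amount and a change in how well they were primed cannot be told apart in these data.

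The RNAs that guide chemical modification of ribosomal RNA did not move as a class. Of 47 C/D box small nucleolar RNAs other than U3, which direct methylation, 5 rose and 4 fell, with a median of 0.035. Of 47 H/ACA box RNAs, which direct pseudouridine formation, 4 rose and 0 fell, and the median was -0.0027. Among all snoRNA genes tested, U3 included, 12 of 98 rose and 4 fell. Without 30 min replicate 1 the counts were 4 higher and 0 lower for the C/D box RNAs and 0 in either direction for the H/ACA box RNAs, and without 30 min replicate 2 they were 4 and 2, and 1 and 0.

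All 5 C/D box RNAs that rose had read lower at 30 min than in controls. They were picked for low readings at 30 min against 60 min, and both steps share the 30 min arrays. A dip at 30 min was thus favoured by the choice, as a peak was for those that fell. Their number, 5 of 47, is near the 9.44% higher among all genes. SNORD4A read 7.36 and 7.50 in controls, 5.83 and 6.48 at 30 min and 7.30 and 7.28 at 60 min. It changed by -1.27 before 30 min and rose by 1.13 ± 0.19 after it (adjusted p = 0.0029, or 0.0529 without the intensity trend), or by 0.56 without background correction. SNORD14A, SNORD31 and SNORD52 rose by 0.79, 0.78 and 0.73 from 30 to 60 min after changes of -0.73, -0.95 and -0.73, and SNORD38A rose by 0.62 after -1.22. The call of SNORD52 was lost without 30 min replicate 2 (adjusted p = 0.059). Of the 4 that fell, SNORD48 read 6.13 and 6.12 in controls, 6.94 and 7.08 at 30 min and 6.38 and 6.55 at 60 min, so it stood highest at 30 min. SCARNA22, an RNA of Cajal bodies, fell in both steps. It read 7.30 and 7.26 in controls, 6.40 on both 30 min arrays and 5.46 and 5.45 at 60 min, where it was not above background and at least 1.62-fold lower than at 30 min (adjusted p = 0.00285).

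**Figure D2:**
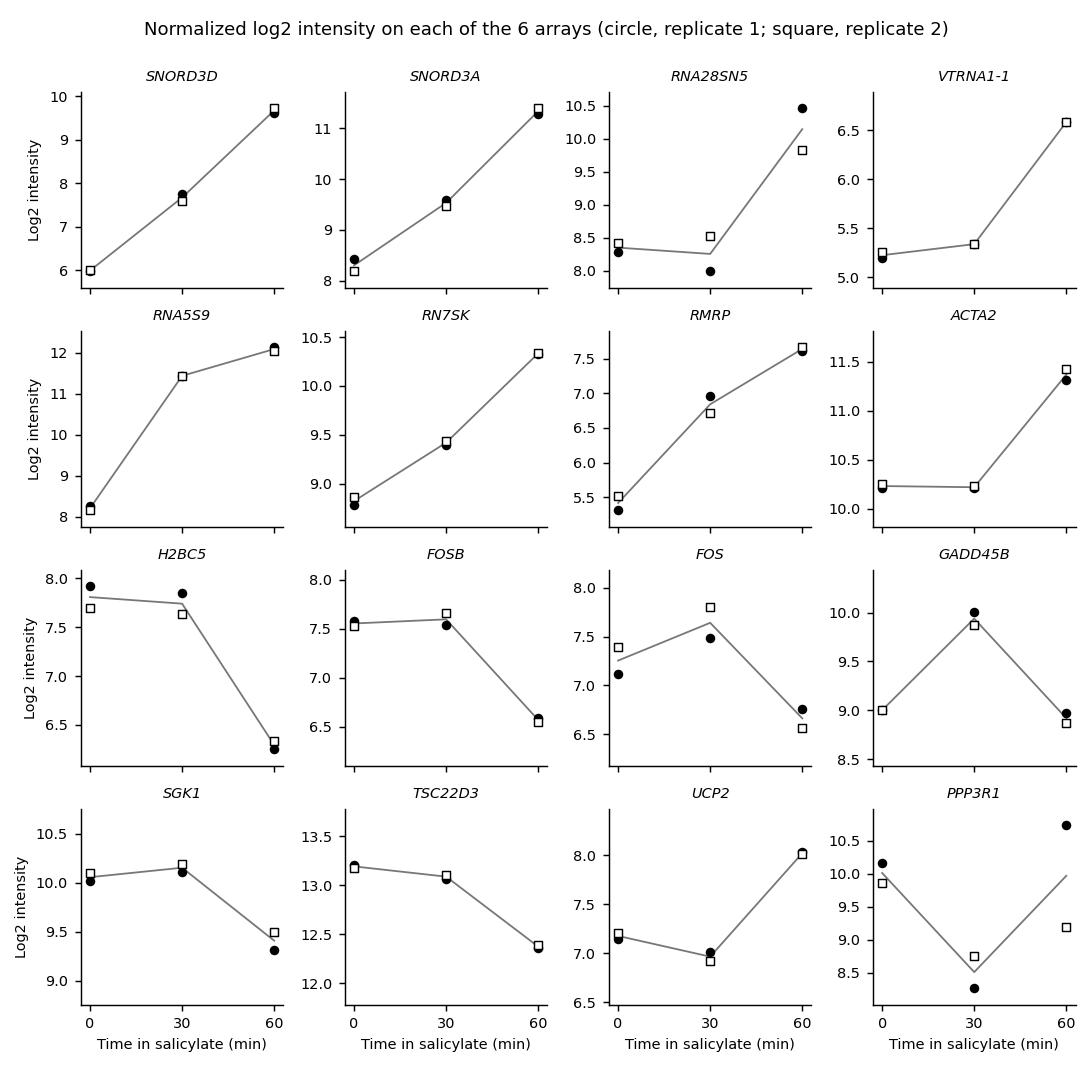
Normalized log2 intensity (y axis, with its own range in each panel) of 16 genes on each of the 6 arrays against time in salicylate (x axis, min); circles are replicate 1, squares replicate 2, and the line joins the group means. SNORD3D climbs in both steps from 5.97 to 9.73, ACTA2 and H2BC5 leave their starting level only after 30 min, GADD45B returns to 8.97 and 8.87, and the 2 arrays of PPP3R1 at 60 min lie far apart.

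Genes for proteins that make or process these RNAs had smaller changes, in both directions. Of 39 genes for the RNA polymerase I and III machinery 3 rose and 8 fell, with a median of -0.016. In either direction 28.2% of them and 20% of the ribosome biogenesis proteins below were called, against 19.5% of all genes. RRN3, the factor that brings polymerase I to the ribosomal RNA promoter, fell by 0.54 on the log2 scale, from 9.49 and 9.41 to 8.89 and 8.93 (SE 0.08, adjusted p = 0.00183). TAF1C, a subunit of the promoter selectivity factor of polymerase I, fell by 0.45 from 11.71 and 11.74 to 11.28 and 11.26. POLR3GL, one of a pair of alternative subunits of polymerase III, rose by 0.56, from 9.74 and 9.73 to 10.23 and 10.37. Of 55 ribosome biogenesis proteins 1 rose and 10 fell, with a median of -0.071; UTP15, RRP1B and RRS1 fell by 0.50, 0.47 and 0.43, and RRP7A rose by 0.61. The call of UTP15 ended without 30 min replicate 1 (adjusted p = 0.0612). Of 24 genes of the nuclear exosome and of RNA tail processing 3 rose and 1 fell, with a median of -0.0058, and EXOSC8, an exosome subunit, rose by 0.59. Without a single array that list held 2 or 3 rises and 0 or 2 falls, with 0 falls without any 1 of the control or 30 min arrays. Without 30 min replicate 1 the counts were 1 and 3 for the polymerase list and for the biogenesis list, and without 30 min replicate 2 they were 1 and 4 for the polymerases and 1 and 5 for biogenesis. Omission of either control array left 1 and 6 for biogenesis, and omission of 60 min replicate 1 left 2 and 5 for the polymerases. Of 16 host genes of snoRNAs and other nuclear noncoding RNAs 0 rose and 6 fell (37.5%, against 10.1% lower among all genes). Among them was SNHG15 at -0.48, with its other probe at -0.43. SNHG7 was called at -0.28, but its other probes disagreed, one called in the opposite direction at 0.64 (adjusted p = 0.00511) and one at -0.16 that was not called. The call of SNHG7 also ended without 30 min replicate 2 (adjusted p = 0.0612). In this list omission of a control array left 3 falls and of a 30 min array 2. Cytosolic ribosomal protein genes were called about as often as other genes upward (7 of 74) and 1, RPL28, fell by 0.42; their median was 0.042. With median scaling 1 rose and 1 fell, and the counts without single arrays ran from 1 to 6 higher and from 1 to 3 lower.

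ACTA2, which encodes smooth muscle actin, had one of the larger rises among protein-coding genes. It read 10.21 and 10.25 in controls, 10.21 and 10.23 at 30 min and 11.32 and 11.42 at 60 min. The change was -0.01 before 30 min and then 1.15 ± 0.07, or 2.22-fold (adjusted p = 2.05e-06). Of 17 actin genes and targets of the serum response factor 4 rose and 2 fell. In either direction 35.3% of this list were called, against 19.5% of all genes. ACTN1 (actinin) rose by 0.37, CNN3 (calponin) by 0.32 and TPM4 (tropomyosin) by 0.28, with the call of CNN3 lost without 30 min replicate 1 (adjusted p = 0.0894), while the cytoplasmic actins ACTB and ACTG1 had changes of -0.02 and -0.01 that were not called. The factor itself, SRF, and its partner MRTFA fell by 0.21 and 0.33. The call of MRTFA ended without any 1 of the 4 salicylate arrays. That of SRF ended without either control array, either 30 min array or 60 min replicate 2. Only ACTA2 was called without the intensity trend, and without either 30 min array or 60 min replicate 2 the list held 3 rises and no fall. Omission of either control array or of 60 min replicate 1 left 4 rises and 1 fall.

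The other large rises did not belong to one pathway. LOX, the enzyme that crosslinks collagen, rose by 1.17 ± 0.12 from 7.90 and 7.81 to 8.87 and 9.17. UCP2, a carrier of the inner mitochondrial membrane, rose by 1.06 ± 0.12 from 7.01 and 6.92 to 8.03 and 8.01. WNT3A, a secreted Wnt ligand, rose by 1.05 ± 0.15 from 6.57 and 6.51 to 7.57 and 7.62. From control to 30 min these 3 genes had changed by 0.16, -0.21 and -0.22, and in each both 60 min arrays lay above all others. MEGF6, which encodes a protein with EGF repeats, rose by 1.09. The lysosomal protease gene CTSZ rose by 1.05 after -0.58 in the first 30 min, a call lost without the intensity trend (adjusted p = 0.0711). SLC67A1 was not above background at 30 min (5.58 and 5.48) and read 6.77 and 6.76 at 60 min, at least 2.11-fold higher (adjusted p = 0.00135). Without background correction the rises of UCP2, WNT3A, MEGF6 and SLC67A1 were 0.66, 0.59, 0.49 and 0.54, and those of ACTA2 and LOX were 1.08 and 0.89.

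Some rises rested on 60 min arrays that disagreed. PPP3R1, the regulatory subunit of calcineurin, read 10.16 and 9.86 in controls, 8.27 and 8.75 at 30 min and 10.74 and 9.20 at 60 min. The fitted rise of 1.46 ± 0.34 (adjusted p = 0.0137) was 0.69 without 60 min replicate 1 and 2.23 without 60 min replicate 2, and the call ended without 30 min replicate 1 (adjusted p = 0.092). TAF15, an RNA-binding protein of paraspeckles, read 13.12 and 11.86 at 60 min, and its rise of 1.12 was 0.49 without replicate 1 and 1.74 without replicate 2 of that time. Its call ended without 30 min replicate 1 (adjusted p = 0.103). HNRNPL, a splicing regulator, read 11.55 and 10.36, and its rise of 1.00 was 0.41 and 1.59 in turn, with the call lost without 30 min replicate 1 (0.0887) or 2 (0.0641). In these 3 genes 60 min replicate 1 was the higher array, the changes from control to 30 min were -1.50 for PPP3R1, -1.06 for TAF15 and -0.88 for HNRNPL, and the calls ended without the intensity trend (adjusted p = 0.139, 0.155 and 0.159).

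The largest fall was in H2BC5, a histone H2B gene. It read 7.92 and 7.70 in controls, 7.84 and 7.64 at 30 min and 6.25 and 6.34 at 60 min, a change of -1.44 ± 0.14 or 2.72-fold lower (adjusted p = 0.000171). Without background correction the change was -0.79. Other histone genes went both ways, with 6 of 39 higher and 4 lower and a median of -0.019. In either direction 25.6% of the list were called, against 19.5% of all genes. H2AC18 fell by 0.57 from 9.63 and 9.45 to 9.10 and 8.85 (adjusted p = 0.058 without the intensity trend), with its other probe at -0.11 and not called, whereas H4C12 rose by 0.78 from 6.43 and 6.48 to 7.16 and 7.32. Histone genes are alike in sequence, so the signal of one probe may come from more than 1 of them. The count of histone genes that rose was 3 without 30 min replicate 2.

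The next falls were in genes of signalling and of transcription. P2RY11, a receptor for extracellular ATP, fell by 1.07 on the log2 scale, from 9.41 and 9.45 to 8.29 and 8.43 (SE 0.08, adjusted p = 4.17e-05). JADE2, a subunit of histone acetyltransferase complexes, fell by 1.05 from 9.08 and 9.11 to 8.14 and 7.96. GPER1, a membrane receptor for oestrogen, fell by 1.03 from 8.14 and 8.10 to 7.07 and 7.12. From control to 30 min P2RY11, JADE2 and GPER1 had changed by -0.06, 0.02 and -0.08. GPER1 had 2 further probes, at -1.13 and 0.15, and fell by 0.66 without background correction. FOXD4 and FOXD4L1, forkhead genes of near-identical sequence, fell by 0.95 and 0.90, and their other probes gave -1.04 each. ESS2, a nuclear protein of the spliceosome, fell by 0.95, while its other probe gave 0.0054. SALL1, a repressor that acts in kidney development, fell by 0.91, a call lost without 30 min replicate 2 (adjusted p = 0.0683), and by 0.41 without background correction. LSMEM1, MINAR1 and the pseudogene TSPY26P fell by 1.08, 1.01 and 1.01, or by 0.55, 0.49 and 0.46 without background correction.

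Immediate early genes fell between 30 and 60 min. Of 27 tested 0 rose and 13 fell, against 10.1% lower among all genes, and 25 had a change below 0. Their median was -0.23, against 0.0090 from control to 30 min, when 0 were called in either direction. FOSB, a partner of the AP-1 transcription factor, read 7.58 and 7.53 in controls, 7.53 and 7.66 at 30 min and 6.59 and 6.55 at 60 min. It fell by 1.03 on the log2 scale, or 2.04-fold (SE 0.13, adjusted p = 0.000598). FOS, its close relative, read 7.11 and 7.39, then 7.48 and 7.80, then 6.76 and 6.56, and fell by 0.98 (SE 0.16, adjusted p = 0.00238). For both genes the 60 min arrays were below the other 4. Without background correction the falls of FOSB and FOS were 0.57 and 0.56.

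NR4A2, an orphan nuclear receptor, fell by 0.80 from 7.94 and 7.87 to 6.93 and 7.28 (adjusted p = 0.0535 without the intensity trend), with its other probe at -0.39 and not called. TRIB1, a pseudokinase, fell by 0.66 from 10.54 and 10.44 to 9.84 and 9.82. The other 9 that fell were ARC, MYC, CSRNP1, BTG1, RHOB, IER5, JUND, ATF3 and SRF, with changes from -0.59 for ARC to -0.21 for SRF. The call of SRF ended in most omissions of 1 array, as given above. MYC, the growth regulator, read 12.17 and 12.10 at 30 min and 11.60 and 11.57 at 60 min. EGR1 and JUN, with changes of -0.14 each, were not called. The list held 8 falls without 30 min replicate 1 and 5 without the intensity trend.

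The promoters of FOS, FOSB and DUSP1 are shown because these genes fell and are known targets of CREB and related factors. DUSP1, a phosphatase of MAP kinases, read 11.22 and 11.42 at 30 min and 10.92 and 10.98 at 60 min, a fall of 0.37 (SE 0.07, adjusted p = 0.00624). The windows run from 250 bases before to 50 after the RefSeq start (GRCh38.p14), 5′ to 3′ on the strand of the gene, with capitals at every TGACGT or its reverse complement, the core of the cyclic AMP response element. FOS lies at chr14:75278578-75278877 (plus strand), FOSB at chr19:45467746-45468045 (plus strand) and DUSP1 at chr5:172771146-172771445 (minus strand).
FOS: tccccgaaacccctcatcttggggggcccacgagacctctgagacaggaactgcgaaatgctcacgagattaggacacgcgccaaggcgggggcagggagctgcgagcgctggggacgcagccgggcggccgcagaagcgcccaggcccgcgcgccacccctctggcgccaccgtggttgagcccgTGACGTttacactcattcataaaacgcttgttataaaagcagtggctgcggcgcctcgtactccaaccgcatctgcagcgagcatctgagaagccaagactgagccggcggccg
FOSB: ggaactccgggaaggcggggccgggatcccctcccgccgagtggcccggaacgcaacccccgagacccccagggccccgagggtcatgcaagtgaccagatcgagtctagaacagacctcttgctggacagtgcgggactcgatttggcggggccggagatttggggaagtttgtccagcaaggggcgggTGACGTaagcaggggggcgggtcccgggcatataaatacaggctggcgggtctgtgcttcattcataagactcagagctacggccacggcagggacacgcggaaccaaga
DUSP1: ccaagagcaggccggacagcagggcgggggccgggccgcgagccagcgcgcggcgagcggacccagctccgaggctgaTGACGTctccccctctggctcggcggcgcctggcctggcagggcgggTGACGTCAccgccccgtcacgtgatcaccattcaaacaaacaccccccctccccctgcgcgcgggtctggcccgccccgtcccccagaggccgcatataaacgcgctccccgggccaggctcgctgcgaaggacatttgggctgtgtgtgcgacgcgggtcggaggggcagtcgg

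FOS and FOSB hold 1 match each and DUSP1 holds 3, of which 2 overlap in TGACGTCA. The same letters, on either strand, occurred in 1146 of the 9881 tested protein-coding genes with a promoter window, or 11.6%. They occurred in 4 of 9 immediate early genes that fell and in 5 of 10 that were not called. The motif was therefore about as common in the immediate early genes that were not called as in those that fell. DUSP1 belongs to another list, the MAP kinase feedback regulators, where 2 of the 8 that fell held the motif (25%). Among all genes with a window it was in 12.8% of those that fell (134 of 1049) and in 8.01% of those that rose (75 of 936).

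Feedback regulators of MAP kinase signalling also fell. Of 20 tested 0 rose and 8 fell (40%, against 10.1% lower among all genes), with a median of -0.24. SPRED1, SPRED2, SPRY1 and SPRY2, of the Sprouty family that restrains Ras signalling, fell by 0.45, 0.44, 0.42 and 0.45, with the call of SPRED2 lost without 30 min replicate 2 (adjusted p = 0.0763). SPRED1 read 9.88 and 9.95 at 30 min and 9.46 and 9.47 at 60 min. SPRY2 read 8.67 and 8.80 at 30 min and 8.04 and 8.52 at 60 min, so its 60 min arrays were apart, and the omission of any 1 of the 6 arrays but 60 min replicate 2 ended its call (highest adjusted p 0.252). The fall of SPRY2 was 0.21 without 60 min replicate 1 and 0.69 without 60 min replicate 2. The others were ERRFI1, an inhibitor of the EGF receptor, at -0.39 (lost without 30 min replicate 2, adjusted p = 0.054), DUSP1, DUSP14 at -0.25 and SPRTN at -0.41. SPRTN is known as a protease of DNA repair and does not regulate MAP kinases as far as background goes, which leaves 7. SPRY4 had a change of -0.57 that did not pass (adjusted p = 0.0578). The list held 3 falls without 30 min replicate 2 and 1 without the intensity trend.

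Genes that respond to osmotic stress or to glucocorticoids were lower at 60 min. Of 8 tested targets of NFAT5, the osmotic stress factor, 4 fell and 0 rose, with a median of -0.41. Of 10 glucocorticoid-responsive genes 5 fell and 0 rose, with a median of -0.29. Each count is 50% of its short list, against 10.1% lower among all genes. SGK1, a kinase that controls sodium transport, stands in both lists. It read 10.11 and 10.19 at 30 min and 9.31 and 9.50 at 60 min and fell by 0.74 (SE 0.08, adjusted p = 0.000318). TSC22D3, the glucocorticoid-induced leucine zipper, fell by 0.71 from 13.07 and 13.11 to 12.36 and 12.39 (SE 0.05, adjusted p = 2.97e-05), and in both genes the 60 min arrays were below all others. The other probes of TSC22D3 gave -0.88 and -0.78, both called, and -0.11, not called. SLC5A3, the inositol transporter, fell by 0.43, a call lost without either control array (adjusted p = 0.0553 and 0.0554), either 30 min array (0.117 and 0.16) or 60 min replicate 1 (0.101). The amino acid transporter gene SLC38A2 fell by 0.59 (60 min arrays 9.91 and 10.59), or 0.25 without 60 min replicate 1, where its call was lost (adjusted p = 0.0944), as it was without 30 min replicate 2 (0.155). The glucocorticoid receptor NR3C1 and its target FKBP5 had changes of -0.21 and 0.10 and were not called. The lists held 2 and 3 falls without 30 min replicate 2.

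**Figure D3:**
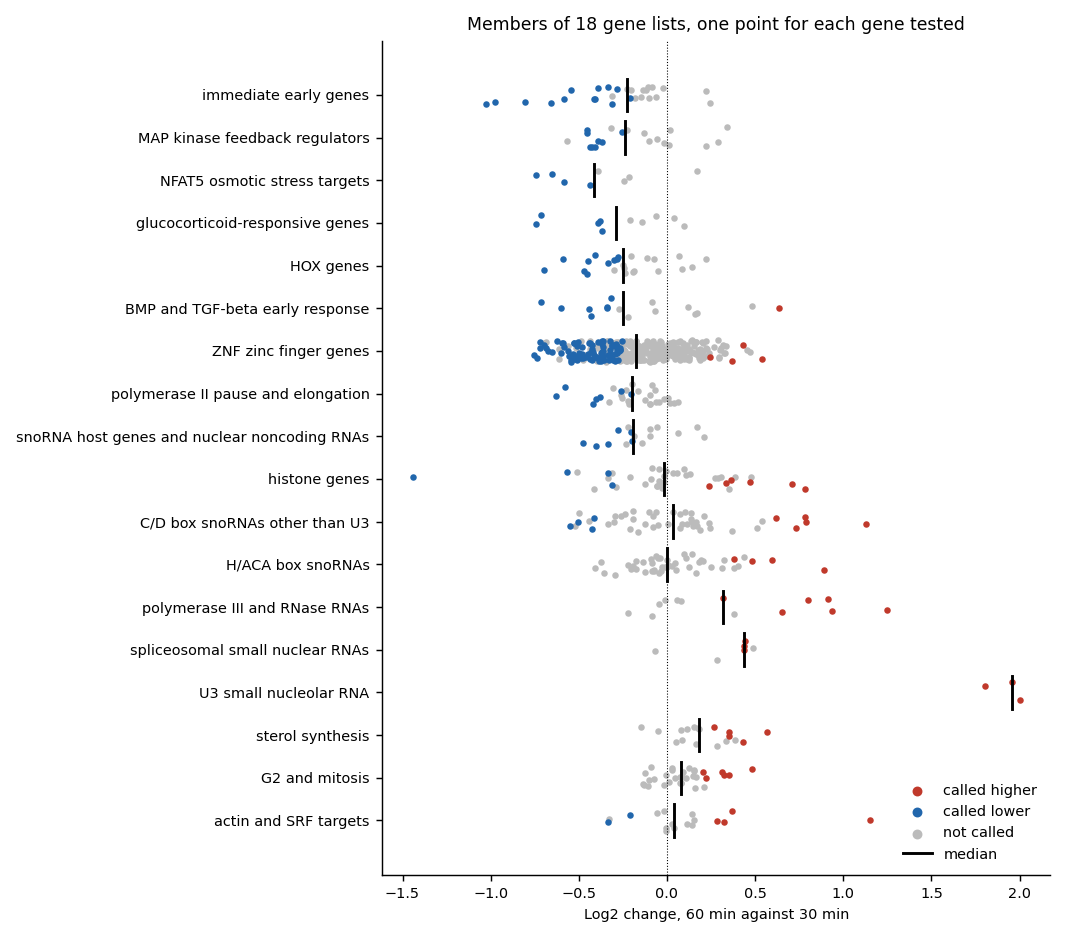
Log2 change from 30 to 60 min (x axis) of every tested member of 18 gene lists (rows), red where called higher, blue where called lower, grey where not called, with the list's median as a bar. Medians run from -0.41 for NFAT5 targets to 1.96 for U3; the immediate early genes lie to the left of 0 apart from IER3 and MAFF.

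Genes with ZNF or ZBTB names, many of them for transcription factors, were often lower. Of 363 ZNF zinc finger genes 4 rose and 82 fell, with a median of -0.18 against 0.036 from control to 30 min. In either direction 23.7% of them and 21.6% of the ZBTB factors below were called. Among all genes 19.5% were called, 9.44% higher and 10.1% lower. ZNF571 fell by 0.75 from 8.21 and 8.07 to 7.36 and 7.42, but its other probe gave 0.06 and was not called. ZNF180 fell by 0.72 from 7.71 and 7.78 to 7.13 and 6.93. Most ZNF genes encode repressors of the KRAB type, and family members share sequence. ZNF135, ZNF185, ZNF594 and ZNF277 rose, by 0.54, 0.43, 0.37 and 0.25. The list was taken by gene name, so not every member, ZNF185 among them, need be a transcription factor. The falls numbered 39 without 30 min replicate 1, 29 without 30 min replicate 2 and 19 without the intensity trend. The rises numbered 0 with median scaling, 2 without control replicate 2 or 60 min replicate 1 and 0 without 30 min replicate 1. Of 37 ZBTB factors 0 rose and 8 fell, with ZBTB42 at -0.53, and 3, 2 and 5 fell without 30 min replicate 1, 30 min replicate 2 and 60 min replicate 1.

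Of 24 tested HOX genes, which set position along the body axis, 0 rose and 10 fell, with a median of -0.25. The share lower was 41.7%, against 10.1% of all genes. HOXB5 fell by 0.47, from 11.35 and 11.31 to 10.92 and 10.80, and HOXB6 by 0.45, from 9.67 and 9.61 to 9.20 and 9.18, but the other probe of HOXB6 gave 0.0015 (adjusted p = 0.996). HOXD9 and HOXB13 fell by 0.70 and 0.59, with calls lost without 30 min replicate 1 (adjusted p = 0.0634 and 0.104), and for HOXD9 also without replicate 2 (0.0899) and for HOXB13 without 60 min replicate 1 (0.0502). The fallen genes came from the B, C and D clusters. The list held 4 falls without 30 min replicate 1 or without the intensity trend.

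Early genes of BMP and TGF-beta signalling went mostly down, with 1 of 16 higher, 7 lower and a median of -0.25. In either direction 50% were called, against 19.5% of all genes. SKI and SKIL, which repress SMAD targets, fell by 0.60 and 0.71, and SMAD7, the inhibitory SMAD, by 0.44. SKI read 8.68 and 8.59 at 30 min and 8.19 and 7.88 at 60 min, with both 60 min arrays below the others. NOG, the BMP antagonist noggin, went the other way after a drop, from 6.72 and 6.80 in controls to 5.63 and 5.74 at 30 min and 6.54 and 6.11 at 60 min. Its rise of 0.64 was lost in 5 of the 6 omissions, all but that of 60 min replicate 2 (highest adjusted p 0.245). The call of SKIL ended without either 30 min array (adjusted p = 0.0869 and 0.191) or 60 min replicate 2 (0.168). The list held 0 rises and 4 falls without either 30 min array, and 0 calls without the intensity trend.

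Within the machinery of transcription, 7 of 29 genes for pausing and elongation of RNA polymerase II fell and 0 rose, with a median of -0.20. The share lower was 24.1%, against 10.1% of all genes. MEPCE, the enzyme that caps 7SK RNA, fell by 0.63 from 9.40 and 9.41 to 8.73 and 8.81 (SE 0.10, adjusted p = 0.00198), while RN7SK itself rose, as given above. SERTAD2, a transcription cofactor, fell by 0.58 from 10.98 and 10.92 to 10.48 and 10.25. CCNT2, a cyclin subunit of P-TEFb, fell by 0.41, with its other probes at -0.79 and 0.0098 and the call lost without 30 min replicate 2 (adjusted p = 0.0527). BRD2, a reader of acetylated histones, fell by 0.38. The subunits of the pausing factor NELF and the kinase CDK9 were not called. Without either 30 min array 4 fell. TADA2B, an adaptor of the SAGA acetyltransferase complex, fell by 0.80 from 9.37 and 9.36 to 8.54 and 8.59, in a list with 3 of 26 higher and 3 lower. In either direction 23.1% of that list were called, near the 19.5% of all genes. With 30 min replicate 1 left out that list held 2 rises and 1 fall, and without replicate 2 it held 1 of each.

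Of 31 factors of mRNA decay 0 rose and 6 fell (19.4%, against 10.1% lower among all genes). ZFP36L2 and ZFP36, which bind AU-rich elements and speed the decay of short-lived messages, fell by 0.65 and 0.55, and TOB1 and TOB2, which recruit deadenylases, by 0.45 and 0.43. ZFP36L2 read 9.40 and 9.28 at 30 min and 8.82 and 8.55 at 60 min. The call of ZFP36 ended without either 30 min array (adjusted p = 0.0604 and 0.129) or 60 min replicate 2 (0.0808), and that of TOB2 without either 30 min array (0.0571 and 0.0678). In a separate list CLK4, a kinase of splicing factors, fell by 0.75 from 8.13 and 8.21 to 7.38 and 7.47. That list, of SR proteins and CLK kinases, had 1 of 23 higher, 3 lower and a median of -0.040. Its 17.4% called is near the 19.5% of all genes.

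GADD45B and GADD45G, growth arrest genes induced by stress, were higher at 30 min than before or after it. GADD45B read 9.00 on both control arrays, 10.01 and 9.87 at 30 min and 8.97 and 8.87 at 60 min. Its rise of 0.94 before 30 min was followed by a fall of 1.02 (SE 0.08, adjusted p = 5.22e-05), so that the 60 min arrays were level with or below the controls. GADD45G read 7.58 and 7.30, then 8.76 and 8.67, then 8.25 and 8.38, and its fall of 0.40 left it above the controls. That call was lost without either 30 min array (adjusted p = 0.205 and 0.113) or 60 min replicate 1 (0.138). ADM, the vasodilator peptide adrenomedullin, took the same course, with 11.44 and 11.39 in controls, 11.88 and 11.93 at 30 min and 11.39 and 11.55 at 60 min, a fall of 0.44 (adjusted p = 0.00174).

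Among p53 targets CDKN1A, the cell cycle inhibitor p21, rose by 0.50 from 12.77 and 12.79 to 13.32 and 13.25 (SE 0.05, adjusted p = 0.000288). BAX, which permeabilises mitochondria in apoptosis, rose by 0.78 from 10.85 and 11.07 to 12.10 and 11.39, with its other probe at 0.42. Its 60 min arrays disagreed, the rise was 0.42 without 60 min replicate 1, and the call ended without 30 min replicate 1 (adjusted p = 0.0615). DDB2, of DNA repair, rose by 0.51, a call that ended without any 1 of the 4 salicylate arrays (highest adjusted p 0.175). With the GADD45 genes included, 3 of 21 rose and 3 fell, and without 30 min replicate 1 there was 1 of each.

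The lists tied to the known actions of salicylate showed no common direction. Of 17 NF-kappaB targets 1 rose and 4 fell, with a median of -0.068. In either direction 29.4% of them were called, against 19.5% of all genes. CCL2, a chemokine that draws monocytes, fell by 0.81 from 8.17 and 8.14 to 7.33 and 7.35 (SE 0.10, adjusted p = 0.000716). NFKBIA, the inhibitor that NF-kappaB itself induces, fell by 0.38 from 11.63 and 11.65 to 11.36 and 11.17, and NFKB1, the precursor of the p50 subunit, by 0.39, a call of NFKB1 that ended without 30 min replicate 1 (adjusted p = 0.0567). BCL3, an atypical member of the inhibitor family, rose by 0.48, a call lost without any 1 array (highest adjusted p 0.273). In the omission of 30 min replicate 1 the list held 0 rises and 2 falls, with a median of 0.053. Of 12 genes for the AMP-activated kinase and its partners 0 rose and 2 fell (16.7%, against 10.1% lower among all genes). These were the catalytic subunit gene PRKAA1 at -0.28 and CAB39 at -0.24. The call of PRKAA1 ended in 5 of the 6 omissions, all but that of 60 min replicate 2 (highest adjusted p 0.277), and with the replicate number as a block (0.0562). Its change was -0.18 without 60 min replicate 1, and its other probe, at -0.19, was not called. The call of CAB39 ended without 30 min replicate 2 (adjusted p = 0.116). Between 0 and 4 fell when 1 array was left out. Of 9 genes of prostaglandin synthesis and its receptors 1 rose and 2 fell. In either direction 33.3% of this short list were called, against 19.5% of all genes. PTGES, the prostaglandin E synthase, rose by 0.75 from 6.86 and 6.85 to 7.47 and 7.74, and the receptor genes PTGER4 and PTGER2 fell by 0.39 and 0.32. Those 2 falls were lost without 30 min replicate 2 (adjusted p = 0.0912 and 0.0892), and that of PTGER2 also without replicate 1 (0.136).

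Among other stress lists the share called was 12.5% for heat shock, 5.56% for the unfolded protein response and 9.52% for targets of NRF2. It was 26.7% for the integrated stress response, against 19.5% of all genes. Of 24 heat shock genes 2 rose and 1 fell: HSPB1 and SERPINH1, both chaperones, at 0.21 and 0.24, and CHORDC1, a partner of HSP90, at -0.47. The inducible genes HSPA1A and HSPA1B had changes of 0.11 and 0.27 and were not called. Of the 3 only CHORDC1 was called in each omission of 1 array, and without 30 min replicate 2 no heat shock gene rose. Of 18 genes of the unfolded protein response 1 rose and 0 fell. The integrated stress response list of 30 genes held 4 rises and 4 falls. ATF5 and PPP1R15A, which act in the response itself, fell by 0.43 and 0.41, and the serine synthesis gene PHGDH rose by 0.34 from 14.35 and 14.31 to 14.73 and 14.61. Counts ranged from 1 to 4 rises and from 2 to 5 falls when 1 array was left out, with 1 and 2 without 30 min replicate 1. Of 21 targets of NRF2, the oxidative stress factor, 0 rose and 2 fell (1 without 30 min replicate 1), and HMOX1, haem oxygenase 1, had a change of 0.29 that was not called (adjusted p = 0.0738). KEAP1, the protein that restrains NRF2, fell by 0.41 (adjusted p = 0.0585 without the intensity trend).

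**Figure D4:**
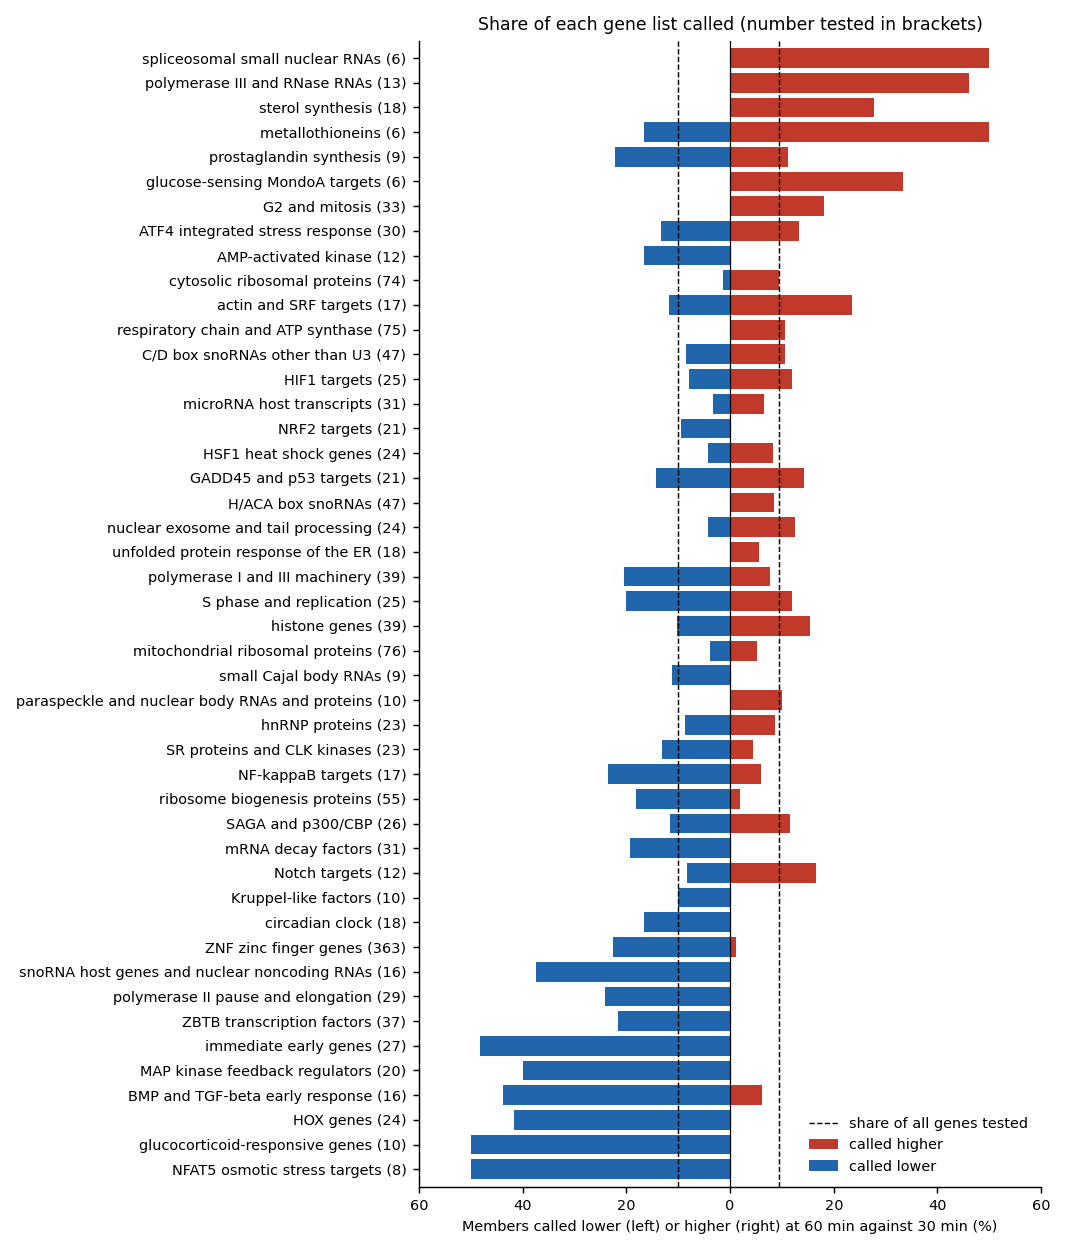
Share of members called lower (blue, left) and higher (red, right) from 30 to 60 min, in percent, for the 46 lists with at least 5 tested genes, ordered by the list's median change; dashed lines mark the share of all genes tested, 10.1% lower and 9.44% higher. Lists of early and regulatory genes at the bottom have up to 50.0% of members lower, and the few lists with an excess of rises at the top are short.

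Lists of metabolism and of the cell cycle were counted next. Of 18 genes of sterol synthesis 5 rose (27.8%, against 9.44% of all genes) and 0 fell, with a median of 0.18. TM7SF2, a sterol reductase, rose by 0.57 from 10.30 and 10.28 to 10.86 and 10.85 (SE 0.07, adjusted p = 0.000467), and HMGCS1, which makes the precursor of mevalonate, by 0.43 from 11.28 and 11.44 to 11.76 and 11.82. NSDHL and MSMO1 rose by 0.35 each. The rise of MSMO1 was 0.23 without 30 min replicate 2, where its call ended (adjusted p = 0.26), as it did without 60 min replicate 2 (0.0987), and its other probes, at 0.30 and 0.03, were not called. The list held 3 rises without 30 min replicate 2, 2 with median scaling and 1 without the intensity trend. TXNIP, which is induced by glucose through MondoA, rose by 0.58 ± 0.07 (adjusted p = 0.000505), with no overlap of the arrays. Of 75 genes of the respiratory chain and ATP synthase 8 rose and 0 fell, near the 9.44% of all genes, with a median of 0.037, and 0 rose with median scaling. Without a single array between 2 and 9 rose and between 0 and 3 fell, the lowest without 30 min replicate 2 and the highest without 60 min replicate 2. Of 76 mitochondrial ribosomal protein genes 4 rose and 3 fell, with a median of -0.019, and the counts without 1 array ran from 0 to 3 rises and from 1 to 2 falls. Of 25 genes of S phase and replication 3 rose and 5 fell, with a median of -0.018. In either direction 32% of them were called, against 19.5% of all genes. With median scaling 0 of these rose and 1 fell, and 0 were called without the intensity trend. Among 33 G2 and mitosis genes 6 were called higher (18.2%, against 9.44% of all genes) and 0 lower. HMMR, a spindle protein, rose by 0.48 from 11.40 and 11.37 to 11.88 and 11.86, and 1 gene of the list rose without 30 min replicate 1 and with median scaling, and 3 without 30 min replicate 2. Of 6 genes of the metallothionein list 3 rose, MT1F, MT2A and MT1X, by 0.60, 0.36 and 0.35, and MTF1, the zinc-sensing factor that drives them, fell by 0.40. The fall of MTF1 was 0.26 without 60 min replicate 2 (adjusted p = 0.0907) and its call also ended without 30 min replicate 2 (0.144). No metallothionein rose without either 30 min array.

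The change from 30 to 60 min was then set against the change from control to 30 min in 1 contrast, which tests the difference between the steps directly. It was called for 327 genes (2.61%), 183 with a more positive and 144 with a more negative second step. GADD45B had one of the largest negative differences (-1.95, adjusted p = 0.000121), as 0.94 was followed by -1.02. RNA5S9 had the largest, -2.58, because 3.23 was followed by 0.65, and GADD45G had -1.67. Among positive differences, RNA28SN5 had 1.98 and SNORD4A 2.40, and PPP3R1, TAF15 and HNRNPL had 2.96, 2.19 and 1.88 on arrays that disagreed at 60 min. The count was unstable. It was 4 without either control array or without 30 min replicate 1, 27 without 30 min replicate 2, 369 without 60 min replicate 1, 918 without 60 min replicate 2, and 1 without the intensity trend. The differences of RNA5S9 and GADD45B passed in each omission of 1 array, whereas those of the other genes named here were lost without 30 min replicate 1.

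**Figure D5:**
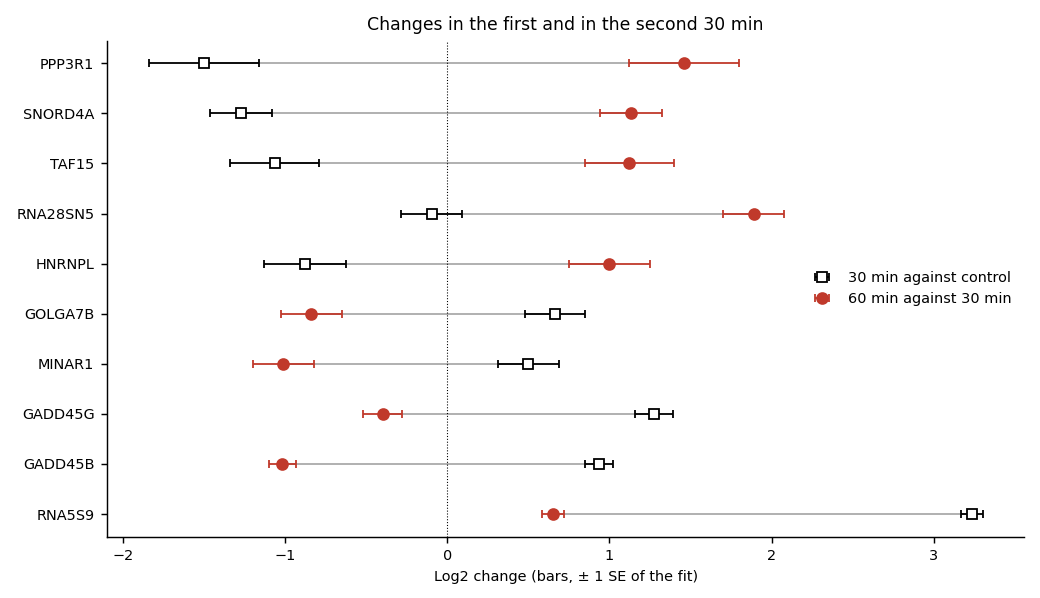
Log2 change (x axis, bars of 1 SE of the fit, 2 arrays per group) from control to 30 min (open squares) and from 30 to 60 min (red circles) for the 10 genes with the largest called differences between the steps. RNA5S9 gains 3.23 and then 0.65, GADD45B gains 0.94 and then falls by 1.02, and RNA28SN5 changes only after 30 min.

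Called protein-coding genes (1129 higher and 1234 lower of 11858) were also compared by the length of the gene and by brightness. Those that rose spanned a median of 34.7 kb, those that fell 26.8 kb and those not called 30.1 kb in the RefSeq annotation. When the protein-coding genes were split into 5 equal groups by level at 30 min, 3.96% rose and 1.14% fell in the dimmest and 11.7% rose and 15.9% fell in the fourth, so calls in either direction were scarce among dim probes. The part of brightness in the split of rises and falls was not tested. Of the 944 other detected probes of called genes, 800 had the same sign as the probe used, 325 were also called in that direction and 5 were called in the opposite one. A further 5668 probes without a gene name were tested, of which 217 rose and 251 fell.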

How the data were processed

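The 6 HEK293 samples, 2 per group, were hybridised to 1-colour Illumina bead arrays. The authors deposited non-normalized probe intensity and a detection p-value for each probe and array. They also deposited a log2 table, which matched quantile-normalized log2 intensity without background correction to 5e-07 and served as an alternative. Per the submitters' processing notes, GenomeStudio 2011.1 and R 2.15.3 were used, with no role given.

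Here the deposited intensity was background-corrected and quantile-normalized with neqc (limma 3.58.1, R 4.3.3), with an offset of 16 and background estimated through the detection p-values. Probes with a detection p-value under 0.05 on 2 of 6 arrays were kept. All 6 arrays entered 1 limma fit with a mean per group and an intensity trend in the variance. P-values were adjusted by the Benjamini-Hochberg method over all 22377 probes and called under 0.05. The fit had 3 residual and 9.25 prior degrees of freedom, and the median SE over genes was 0.0944. Only 2 arrays per group limit the precision. In bulk samples fewer cells and less RNA per cell cannot be told apart.

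Of the probes, 30113 carried 1 gene symbol in the platform annotation, 8 several and 17202 none; 20020 of 20046 genes were matched by identifier to RefSeq. A gene takes its detected probe with the highest mean. The 274 genes followed as named genes include the 15 largest rises, the 15 largest falls and the 5 largest differences between steps in each direction. The rest are the 4 largest called and 2 largest uncalled members of each of 48 lists. Only some of these list members, and not all of the lists, are described in the text. Genes in the text outside the 274 were chosen after their values were seen. The comparison and the lists were chosen with earlier results of these data known. The fit was tested on simulated data. Alternatives covered background correction, scaling, the filter, the variance trend, the arrays in the fit, probes per gene, a replicate block and the omission of each array. Same-numbered arrays did not deviate together (correlations 0.031, 0.078 and -0.078), so the numbers were not taken as pairs.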

Additional observations from a re-analysis of the deposited data

Results flagged for a closer look

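For 327 genes the change from 30 to 60 min differed from the change from control to 30 min, by the limma contrast of the 2 steps, which share the 30 min arrays. The 5 largest positive differences (log2) were 2.96 for PPP3R1, 2.40 for SNORD4A, 2.19 for TAF15, 1.98 for RNA28SN5 and 1.88 for HNRNPL. The 5 largest negative ones were -2.58 for RNA5S9, -1.95 for GADD45B, -1.67 for GADD45G, -1.51 for MINAR1 and -1.50 for GOLGA7B. The count was 4 without either control array or without 30 min replicate 1, and 27 without 30 min replicate 2. Only RNA5S9 was called under every setting, and GADD45B under every one but that without the intensity trend (adjusted p = 0.136).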

How the results depend on the processing

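Direction was followed for the 182 called of 274 named genes and for 10 differences between the steps, and none of these turned under the 16 alternatives; other called genes were not followed. Of 48 list medians 17 turned sign in at least 1 of 9 settings (each omission, median scaling, no background correction, no intensity trend), all of them between -0.068 and 0.051 as reported and between -0.066 and 0.213 where turned. Counts of calls for 60 against 30 min moved by over 1.5 times under 2 choices and the omission of arrays. With median scaling 1433 genes and 2077 probes passed, and 26.9% of the called genes were higher against 48.3% with quantile normalization. Without the intensity trend 490 genes and 718 probes passed. Omission of 1 array gave 954 to 2195 genes and 1308 to 3167 probes, lowest without a 30 min array. Genes whose change differed between the steps numbered 177 with median scaling, 1 without the intensity trend, 570 with 1 probe per gene fitted, and 4 to 918 with 1 array left out. With the replicate number as a block 2388 genes and 3368 probes passed for 60 against 30 min, and 215 genes for the difference between the steps; the labels do not say that the numbers pair samples. Of 274 named genes, calls were lost for 52 with median scaling, 109 without the trend, 73 without either 30 min array and 3 without background correction. Of 48 list medians 29 moved by more than the spread between arrays with median scaling. The fit on the 4 salicylate arrays alone gives no test of the difference between the steps. Calls among dim probes were few, and fold changes there depended on background correction.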
